A study of Homo sapiens with 30 samples.

Results

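Levels of 10 protease inhibitor genes were followed across every group of 2 RNA-seq experiments in UMUC1 (an established cell line from human bladder cancer): 8 serpins of clade B (SERPINB1, SERPINB2, SERPINB3, SERPINB4, SERPINB5, SERPINB7, SERPINB8 and SERPINB13) and the small elastase inhibitors PI3 (elafin) and SLPI. A row belonged to the set when its gene name equalled one of these symbols. The symbols were selected on earlier results from these same groups, so their differences are given as a description and without p-values. All 10 genes were found among the 58288 genes of the table on culture medium, and 9 among the 20073 genes of the table on FGFR3. SERPINB4 was found in the former only, by neither name nor identifier in the latter. All 10 and all 9 passed the filter on low counts, which kept 19629 and 19399 genes. SERPINB4 passed through its sphere medium groups only.

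All groups shared the UMUC1 background, which has lost the function of UTX, the histone H3K27 demethylase encoded by KDM6A, by mutation. The study addresses differentiation genes under UTX and under activated FGFR3, a growth factor receptor with kinase activity. In the medium experiment, cells stably carried the vector pSIN-puro, either empty (EV), with wild type UTX, or with HEAA, a UTX carrying the changes H1146A and E1148A. Each was harvested 3 days after plating in full medium, which was MEM with 10% fetal bovine serum, or in sphere medium, which was serum-free MEM with B27 lacking vitamin A and with FGF2 and EGF at 20 ng/ml each. In the FGFR3 experiment every group carried pBabe-puro with FGFR3, either wild type (FGFR3WT) or with the bladder cancer mutation S249C (FGFR3S249C), together with pCDH-blasticidin, either empty or with wild type UTX, and all grew in full medium for 3 days. No group of that experiment lacked an FGFR3 vector. Each of the 10 groups had 3 libraries, made with TruSeq in the medium experiment and NEBNext Ultra II in the FGFR3 experiment. The labels do not say whether the cells were clones or pools, or whether the libraries came from separate cultures, so p-values measure only the spread between these libraries, which may be technical.

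Total counts ran from 23749352 to 40111234 in the medium experiment and from 21672408 to 28290664 in the FGFR3 experiment. Levels are CPM (counts scaled to library size with TMM factors), as mean ± SD of 3 libraries. Log2 fold changes are ± SE from an edgeR fit across all genes, and a gene is called when its adjusted p (Benjamini-Hochberg) is under 0.05. KDM6A stood at 8.18 to 17.4 CPM on average in the EV groups and 579 to 943 CPM in the UTX and HEAA groups. FGFR3 stood at 1243 to 1301 CPM with the wild type vector and 2322 to 2588 with S249C. Summed levels of 10 epithelial markers ran from 6626 to 23962 CPM over the groups of the medium experiment and from 7693 to 8963 CPM in the FGFR3 experiment. Leukocyte markers summed to 3.08 to 14.6 CPM (8 genes) and 9.32 to 16.5 CPM (6 genes), and fibroblast and endothelial markers to 9.29 to 26.4 CPM (7 genes) and 21.8 to 25.8 CPM (5 genes). Mitochondrial transcripts held 0.292% to 0.649% and 0.295% to 0.474% of the counts. In RNA of whole cultures, a lower level in each cell and fewer cells that express a gene cannot be told apart.

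Serpins are protease inhibitors that offer an exposed loop as bait; the protease cuts it and stays bound to the inhibitor as it changes shape. Those of clade B lack a classical secretion signal and act largely inside cells, and many are products of squamous epithelium. PI3 and SLPI are unrelated to the serpins: they are small secreted proteins with WAP domains that block neutrophil elastase, and squamous and inflamed epithelium makes both.

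Positions are from GENCODE v29 (GRCh38), a later build than the one the submitters name. There, 7 of the 10 genes lie in a serpin cluster of 543.0 kb on chromosome 18, together with SERPINB12, SERPINB11 and SERPINB10. SERPINB5 opens the cluster at chromosome 18, 63476761 to 63505085, and SERPINB8 closes it at 63969925 to 64019779. Between them lie SERPINB13 at 63586989 to 63604639, SERPINB4 at 63637259 to 63644298, SERPINB3 at 63655197 to 63661963, SERPINB7 at 63752935 to 63805376 and SERPINB2 at 63871692 to 63903890. SERPINB1 lies on chromosome 6 at 2832332 to 2842006, beside SERPINB9 and SERPINB6. PI3 (chromosome 20, 45174876 to 45176544) and SLPI (chromosome 20, 45252239 to 45254564) lie within 79.7 kb of each other. SERPINB3 lies within the span of SERPINB11 on the opposite strand and SERPINB2 overlaps SERPINB10 on the same strand. Over the 6 groups of the medium experiment SERPINB11 averaged at most 0.057 CPM and SERPINB10 0.411 to 2.05 CPM.

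SERPINB3 and SERPINB4 are near-copies of each other, and their promoters are shown because the levels of both were far higher in sphere than in full medium. The windows run from 250 bases before to 50 bases after the start (RefSeq, GRCh38.p14, minus strand, chr18:63661844-63662143 for SERPINB3 and chr18:63644207-63644506 for SERPINB4). Capitals mark the 4 of 300 positions that differ, which are G126A, G201A, C228T and T260C from SERPINB3 to SERPINB4, counted from 1 at the 5′ end of the window.
SERPINB3: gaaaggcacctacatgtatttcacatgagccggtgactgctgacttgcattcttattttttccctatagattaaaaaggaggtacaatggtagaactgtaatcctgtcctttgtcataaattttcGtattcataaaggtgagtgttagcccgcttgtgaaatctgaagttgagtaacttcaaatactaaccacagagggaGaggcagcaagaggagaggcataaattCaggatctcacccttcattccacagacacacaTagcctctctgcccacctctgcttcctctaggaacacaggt
SERPINB4: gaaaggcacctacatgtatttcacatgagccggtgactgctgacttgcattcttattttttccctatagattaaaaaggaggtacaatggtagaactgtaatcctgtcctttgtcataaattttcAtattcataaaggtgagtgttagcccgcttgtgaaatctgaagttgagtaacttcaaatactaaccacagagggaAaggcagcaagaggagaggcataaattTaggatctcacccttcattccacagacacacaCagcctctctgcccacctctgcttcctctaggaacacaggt
Their longest coding transcripts were identical at 95.71% of 1749 aligned bases, and 38.95% of the 31-base words of SERPINB3 transcripts and 33.91% of those of SERPINB4 occurred in both. How reads were split between them is therefore uncertain. No other member shared a word of that length with another member.

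Promoter windows were given for 8 members, 10 windows in all since SERPINB7 has 3. The motif TGANTCA, a loose form of the AP-1 site that allows any middle base, occurred on either strand in 6 of the 10 windows. It occurred in 7.71% of all 35116 windows of the same length. In SERPINB2 and in SERPINB5 the match reads TGAATCA. The NF-kB motif searched, which reads 3 G, 2 bases of any kind, 3 T and 2 C, occurred in 1 of the 10, a window of SERPINB7, and in 1.91% of all; no match of one motif overlapped the other. The windows of SERPINB2 (chr18:63887455-63887754), SERPINB13 (chr18:63587093-63587392), SERPINB8 (chr18:63969831-63970130) and the SERPINB7 start at chr18:63775168-63775467 are printed since the levels of these 4 genes with UTX differed in direction between the 2 experiments. All are on the plus strand, and capitals mark TGANTCA.
SERPINB2: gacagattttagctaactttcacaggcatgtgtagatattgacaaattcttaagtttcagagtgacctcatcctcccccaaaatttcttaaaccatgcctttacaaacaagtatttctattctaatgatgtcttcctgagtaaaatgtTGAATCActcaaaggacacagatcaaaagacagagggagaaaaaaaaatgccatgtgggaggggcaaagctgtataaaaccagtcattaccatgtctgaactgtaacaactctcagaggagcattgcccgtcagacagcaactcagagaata
SERPINB13: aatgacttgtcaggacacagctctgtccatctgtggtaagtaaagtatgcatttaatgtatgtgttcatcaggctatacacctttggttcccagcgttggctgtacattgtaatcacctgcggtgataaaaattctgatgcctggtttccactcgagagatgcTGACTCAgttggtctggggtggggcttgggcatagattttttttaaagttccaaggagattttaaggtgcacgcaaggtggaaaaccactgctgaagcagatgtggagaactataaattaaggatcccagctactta
SERPINB8: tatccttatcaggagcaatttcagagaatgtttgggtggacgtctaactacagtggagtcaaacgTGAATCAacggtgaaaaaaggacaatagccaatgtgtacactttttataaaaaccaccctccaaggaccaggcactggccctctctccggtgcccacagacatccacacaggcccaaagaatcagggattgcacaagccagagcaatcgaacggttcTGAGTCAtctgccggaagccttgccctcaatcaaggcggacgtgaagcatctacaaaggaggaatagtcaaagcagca
SERPINB7: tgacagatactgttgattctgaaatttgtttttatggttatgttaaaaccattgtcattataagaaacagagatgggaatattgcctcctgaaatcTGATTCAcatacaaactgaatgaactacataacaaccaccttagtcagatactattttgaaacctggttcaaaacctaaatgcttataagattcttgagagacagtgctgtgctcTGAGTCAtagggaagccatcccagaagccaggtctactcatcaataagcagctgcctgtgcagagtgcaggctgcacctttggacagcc
SERPINB8 and this SERPINB7 window hold 2 matches each, SERPINB2 and SERPINB13 1 each. SERPINB5 and the SERPINB7 window at chr18:63777531-63777830 also hold the motif. The printed SERPINB7 window is 1 of 3, and the remaining one, at chr18:63752807-63753106, holds no match. Neither do the windows of SERPINB1, SERPINB3 and SERPINB4. A match describes the letters of the window and does not show that a factor binds there.

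Compared per kb of exon, the most abundant member in EV cells of full medium was SERPINB2 at 83.3 CPM per kb. SERPINB5 (43.2), SLPI (42.7) and SERPINB7 (38.8) came next, with libraries that overlapped between neighbours, and SERPINB3 (2.42) and SERPINB4 (0.06) came last. In sphere medium the order in EV cells was led by PI3 at 474 CPM per kb, SLPI at 181 and SERPINB13 at 151, and SERPINB7 (8.67) and SERPINB4 (6.32) closed it, with no overlap between neighbours. In the 4 FGFR3 groups SERPINB5 led (31.8 to 37.0 CPM per kb) and SLPI followed (23.3 to 27.7).

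**Figure D1:**
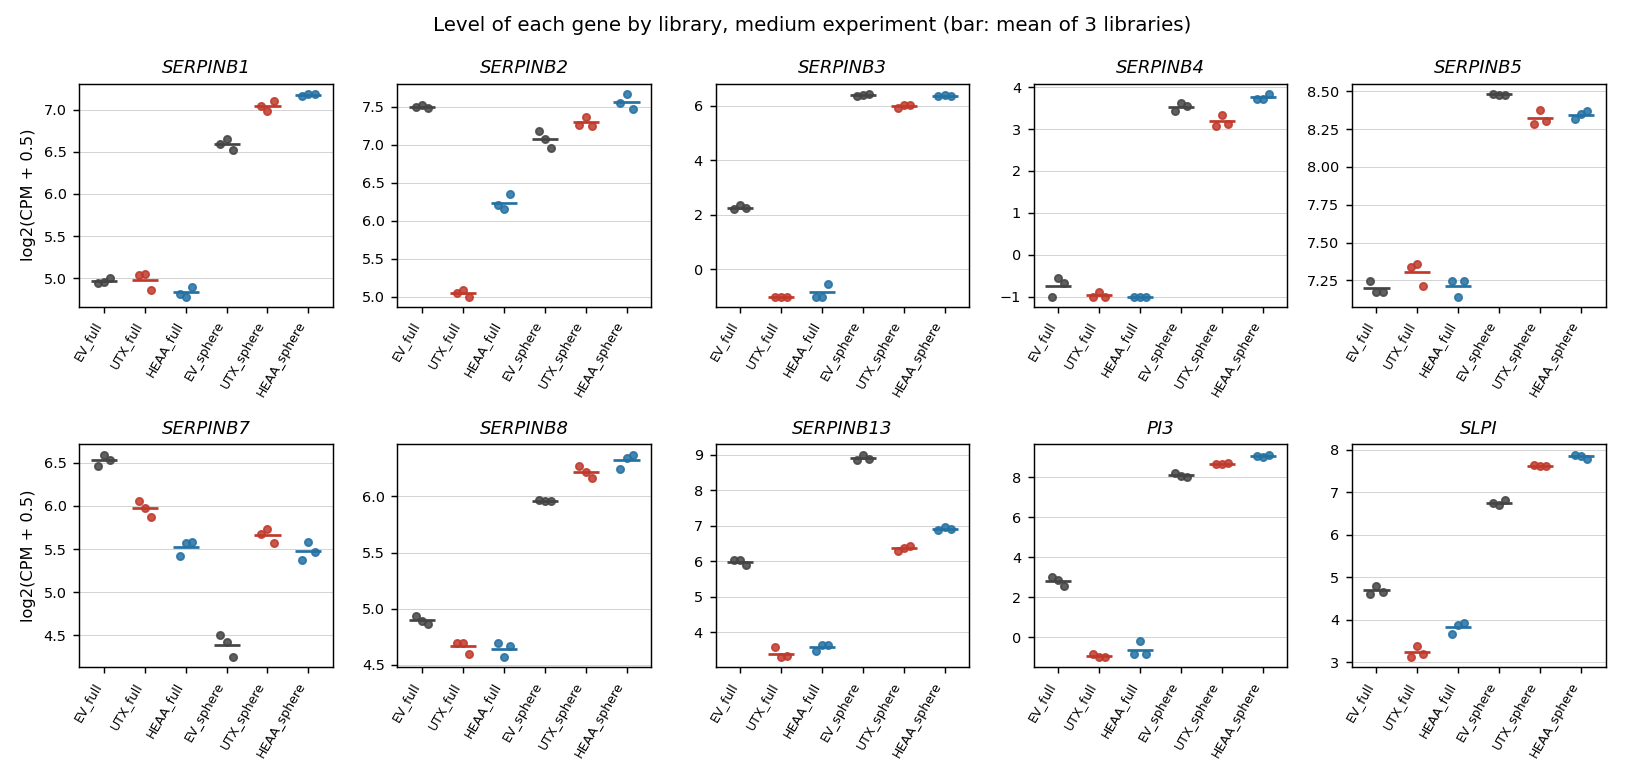
Level of each of the 10 genes in the medium experiment as log2(CPM + 0.5), with 1 point per library and a bar at the mean of the 3 log values of each group. Most genes sit higher in the 3 sphere groups on the right of each panel, and in the panel of SERPINB7 the EV libraries of sphere medium sit lowest, at 18.5 to 22.1 CPM.

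In full medium, 7 of the 10 members were lower with UTX than with EV in every library, and the other 3 overlapped. How many of all genes stand apart in this way was not computed, here or in the comparisons below. Nothing is therefore read from such counts of members. The fit called 1 member higher and 8 lower, where 28.4% of all genes tested were called higher and 29.2% lower; since the members were chosen with this comparison known, nothing is read from these counts. The median of the 10 log2 fold changes was -2.0, against 0.040 for all genes. HEAA gave 0 members higher and 9 lower against EV (23.2% and 25.3% of all genes), with 8 of 10 lower in every library and a median of -1.14 against 0.027. Both comparisons use the same EV libraries.

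In sphere medium the members went both ways. With UTX, 6 were called higher and 4 lower than with EV (22.8% and 25.6% of all genes), the libraries of no member overlapped, and the median was 0.24 against -0.0083 for all genes. With HEAA, 6 were higher and 2 lower (19.9% and 21.5%), with a median of 0.43 against -0.020. With total counts in place of TMM factors, 64.1% in place of 47.1% of the genes called were higher with UTX and 67.3% in place of 48.1% with HEAA, and the median of all genes moved to 0.098 with UTX. The change of the UTX difference between media was called higher in 7 members and lower in 1 (21.1% and 16.2% of all genes). The exceptions were SERPINB13 and SERPINB4, which were not called, and SERPINB5, the one called lower. SERPINB4 was called when EV_full replicate 1 or UTX_full replicate 2 was left out.

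Moving from full to sphere medium, 8 members were called higher and 2 lower in EV cells (33.1% and 32.4% of all genes), 9 higher and 1 lower in UTX cells (35.1% and 35.4%) and 9 higher and 0 lower in HEAA cells (34.4% and 36.3%). SERPINB4 is counted as higher in EV, UTX and HEAA cells alike. It passed the filter through its sphere groups only, so its direction here was fixed beforehand. Since the members were chosen with these groups known, nothing is read from these counts. The median log2 fold changes of the members were 1.86, 2.65 and 2.88, against -0.029, -0.064 and -0.072 for all genes. With total counts the median of all genes moved to -0.21, -0.19 and -0.21, and 34.9% in place of 50.6% of the genes called in EV cells were higher; no member changed direction. Mitochondrial transcripts moved with the medium, from 0.510% to 0.649% of counts over the libraries of full medium to 0.292% to 0.470% in sphere medium. They also separated UTX from EV libraries, with 0.620% to 0.649% against 0.510% to 0.576% in full medium and 0.300% to 0.307% against 0.439% to 0.470% in sphere medium. The summed leukocyte markers were lowest in EV_full and highest in UTX_sphere, and most of that was CD68, at 2.38 ± 0.299 and 13.6 ± 0.705 CPM. Their part in the results was not tested.

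PI3, the precursor of elafin, which inhibits neutrophil elastase and proteinase 3, ranged widely. Its level was 7.58, 6.80 and 5.51 CPM in the EV libraries of full medium. With UTX it was 0.058, 0 and 0 CPM, which is 2 counts against 668, so that EV was 297 times as high (95% counting interval 82.0 to 2460). With HEAA it was 0.071, 0.366 and 0.064 CPM, 14 counts in all, and the UTX and HEAA libraries, though they did not overlap, held too few counts to order them closely (ratio 7.34, interval 1.69 to 66.6). In sphere medium the direction was the opposite: PI3 stood at 295, 267 and 258 CPM with EV, 410.1, 400.0 and 424 with UTX and 544, 514 and 564 with HEAA. The 3 sphere groups did not overlap, with a log2 fold change of 0.59 ± 0.069 for UTX and 0.99 ± 0.069 for HEAA against EV. Sphere against full medium was 5.38 ± 0.095 in EV cells and a count ratio of 18797 (5203 to 155217) in UTX cells.

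SLPI, which inhibits elastase and cathepsin G, followed the same order of groups as PI3 over a smaller range. It stood at 24.0, 27.5 and 24.9 CPM with EV in full medium, 8.19, 9.90 and 8.74 with UTX and 12.2, 14.3 and 14.8 with HEAA. The 3 groups did not overlap, and the log2 fold change was -1.52 ± 0.074 for UTX and -0.89 ± 0.069 for HEAA. In sphere medium it stood at 107, 104 and 113 CPM with EV, 201, 195 and 197 with UTX and 237, 231 and 222 with HEAA, again without overlap and now highest with HEAA. Sphere against full medium was 2.08 ± 0.058 in EV, 4.48 ± 0.067 in UTX and 4.06 ± 0.063 in HEAA cells. PI3 and SLPI were the members whose 6 groups all stood apart from their neighbours in the order.

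SERPINB1, a serpin that inhibits neutrophil elastase, proteinase 3 and cathepsin G inside cells, differed little in full medium. Its means were 30.8 ± 0.581 CPM with EV, 31.2 ± 2.33 with UTX and 28.0 ± 1.19 with HEAA, and the EV and UTX libraries overlapped (0.015 ± 0.053). In sphere medium it was 96.4, 100.3 and 91.2 CPM with EV, 132, 127 and 137 with UTX and 143, 145 and 146 with HEAA. UTX was higher than EV in every library there (0.46 ± 0.045). The target proteases ELANE, PRTN3 and CTSG had 0 counts in all 18 libraries of the medium experiment.

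SERPINB3, an inhibitor of cysteine proteases such as cathepsin L and a marker of squamous differentiation, had 4.07, 4.60 and 4.24 CPM in the EV libraries of full medium. The 3 UTX libraries had 0 counts against 443, at least 131-fold lower (the bound sets the UTX group at 3 counts). With HEAA 2 libraries had 0 counts and the third 6. In sphere medium SERPINB3 stood at 81.3, 84.2 and 86.0 CPM with EV, 59.4, 65.0 and 64.1 with UTX and 81.2, 83.5 and 81.1 with HEAA. All UTX libraries were below all EV and HEAA libraries (-0.42 ± 0.057 against EV), whereas HEAA and EV overlapped (-0.034 ± 0.055). Sphere against full medium was 4.28 ± 0.079 in EV cells and at least 1911-fold higher in UTX cells.

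SERPINB4, which inhibits chymotrypsin-like serine proteases such as cathepsin G, was close to absent in full medium, with 11, 1 and 0 counts over the 3 libraries of EV, UTX and HEAA. At this depth the libraries of the 3 groups overlapped, and the ratio of EV to UTX was 9.79 (1.42 to 421). Sphere levels were 10.2, 11.8 and 11.2 CPM with EV, 7.96, 9.65 and 8.22 with UTX and 12.6, 12.6 and 13.8 with HEAA. UTX was lowest and HEAA highest in every library. Its call in full medium ended without EV_full replicate 2 or 3 or UTX_full replicate 1 or 3, and its call in sphere medium (UTX against EV, -0.36 ± 0.13) without EV_sphere replicate 2 or 3 or UTX_sphere replicate 1 or 3 and with total counts in place of TMM factors. SERPINB4 held 11.2% to 14.6% of the counts of the pair in the 9 sphere libraries. The sum of the pair, which does not depend on the split of reads between the 2 genes, was 94.9 ± 2.98 CPM with EV, 71.4 ± 3.69 with UTX and 94.9 ± 1.10 with HEAA in sphere medium, and 4.41 ± 0.354, 0.01 ± 0.02 and 0.06 ± 0.11 CPM in full medium.

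SERPINB13, a keratinocyte serpin that inhibits cathepsins L and K, was lower with UTX in both media by nearly the same factor. In full medium it was 65.3, 64.5 and 58.7 CPM with EV, 11.4, 9.27 and 9.49 with UTX and 10.6, 11.9 and 11.8 with HEAA. EV stood above both, and UTX and HEAA overlapped. In sphere medium the levels were 467, 515 and 469.8, 78.0, 83.1 and 85.9 and 117, 125 and 119.9 CPM, with no overlap and UTX lowest. The log2 fold change of UTX was -2.63 ± 0.071 in full and -2.56 ± 0.058 in sphere medium, a difference of 0.077 ± 0.092 that was not called. The medium itself had a log2 fold change of 2.95 ± 0.058 in EV cells and 3.02 ± 0.072 in UTX cells.

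SERPINB2 (PAI-2) inhibits urokinase and is made by keratinocytes and monocytes. Its levels in full medium were 179.7, 184 and 179 CPM with EV, 32.5, 33.4 and 31.5 with UTX and 73.1, 70.5 and 81.3 with HEAA. The 3 groups stood apart, and the log2 fold change was -2.48 ± 0.063 for UTX, -1.27 ± 0.059 for HEAA and -1.21 ± 0.064 for UTX against HEAA. In sphere medium it was 144, 135 and 123 CPM with EV, 153, 164 and 152 with UTX and 187, 203 and 178 with HEAA, lowest with EV in every library. The medium had opposite signs: sphere was -0.43 ± 0.057 in EV cells and 2.27 ± 0.064 in UTX cells.

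SERPINB7, a serpin of the upper epidermis, was the member whose EV level was lowest in sphere medium relative to full. It was 87.8, 96.2 and 91.7 CPM with EV in full medium, 66.3, 62.6 and 58.3 with UTX and 42.4, 46.9 and 47.6 with HEAA. In sphere medium it was 22.1, 20.9 and 18.5 CPM with EV, 50.7, 52.7 and 47.1 with UTX and 40.9, 47.3 and 43.8 with HEAA. EV was the highest of the 3 in full medium and the lowest in sphere medium, in every library. Sphere against full medium was -2.17 ± 0.068 in EV cells, -0.31 ± 0.065 in UTX cells and -0.06 ± 0.066 in HEAA cells, whose libraries overlapped.

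SERPINB8, an inhibitor of the proprotein convertase furin, moved by small steps between EV, UTX and HEAA within each medium. Its means were 29.3 ± 0.753, 24.9 ± 0.948 and 24.5 ± 1.19 CPM with EV, UTX and HEAA in full medium, and 61.9 ± 0.151, 74.0 ± 2.73 and 79.5 ± 3.62 CPM in sphere medium. EV was above UTX in every library in full medium (-0.23 ± 0.048) and below it in every library in sphere medium (0.26 ± 0.042). Sphere against full medium was 1.08 ± 0.044 in EV, 1.57 ± 0.046 in UTX and 1.69 ± 0.045 in HEAA cells. SERPINB5 (maspin), a serpin that inhibits no known protease and is regarded as a tumour suppressor, was the steadiest. Its means were 146 ± 4.42, 157 ± 8.73 and 148 ± 6.19 CPM in full medium, where all 3 groups overlapped, and 356 ± 0.889, 319 ± 11.05 and 325 ± 5.92 CPM in sphere medium. There EV was above UTX (-0.16 ± 0.041) and HEAA in every library. The SERPINB5 call in full medium (0.11 ± 0.042) ended without a filter on low counts and when EV_full replicate 2 or 3, or UTX_full replicate 1 or 2, was left out, and its call in sphere medium ended when libraries were scaled by total counts.

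UTX and HEAA differ in the 2 changed residues, but they were carried by separately made cells, clones or pools unknown. The residues and other differences between these cells, such as the level of the transgene, cannot be told apart. In full medium 2 members were called higher with UTX (SERPINB1 and SERPINB7) and 2 lower (SERPINB2 and SLPI), where 8.95% of all genes were higher and 12.4% lower, and 6 of 10 overlapped. The median of the members was -0.082, or -0.18 with counts of 0 set at their floor. In sphere medium 1 was called higher and 7 lower (8.87% and 11.2%). Of all genes, the 2442 lower in full medium were 1591 without HEAA_full replicate 3, and the 1742 higher in sphere medium were 998 without UTX_sphere replicate 2. The 7 were SERPINB1, SERPINB2, SERPINB3, SERPINB4, SERPINB13, PI3 and SLPI, with log2 fold changes from -0.60 ± 0.13 for SERPINB4 to -0.13 ± 0.044 for SERPINB1. All 7 were lower in every library. The SERPINB1 call ended in both media without a filter on low counts. In full medium it also ended with RLE factors and without UTX_full replicate 1 or 2 or HEAA_full replicate 1 or 2, and in sphere medium with total counts and without UTX_sphere replicate 2 or HEAA_sphere replicate 3. The SERPINB7 call in sphere medium ended with RLE factors and without UTX_sphere replicate 1 or 2 or HEAA_sphere replicate 1 or 3.

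**Figure D2:**
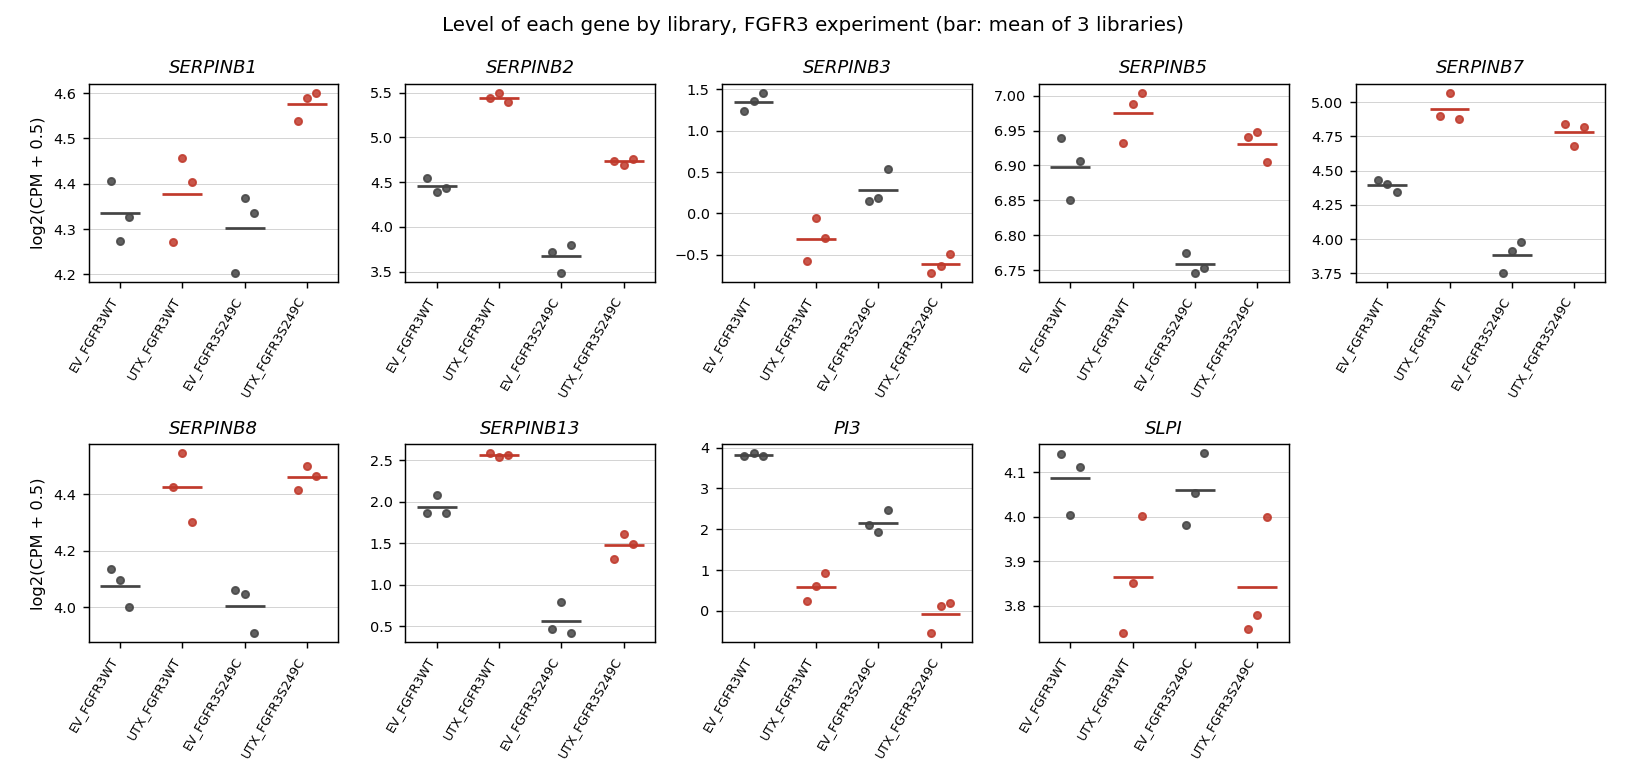
Level of each of the 9 genes found in the FGFR3 experiment as log2(CPM + 0.5), with 1 point per library and a bar at the mean of the 3 log values of each group. PI3 and SERPINB3 sit lower with UTX beside either FGFR3, while SERPINB2, SERPINB7, SERPINB8 and SERPINB13 sit higher.

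Beside wild type FGFR3, 4 of the 9 members were called higher with UTX and 2 lower, where 9.06% of all genes were higher and 6.01% lower. Beside S249C, 6 were higher and 2 lower (12.9% and 8.62%). Of all genes, the 1166 lower beside wild type FGFR3 were 758 without EV_FGFR3WT replicate 3, and the 1672 lower beside S249C were 1080 without EV_FGFR3S249C replicate 1 and 1077 without UTX_FGFR3S249C replicate 1. The median log2 fold changes were 0.077 and 0.28, against 0.00071 and -0.013 for all genes. With total counts 45.9% in place of 59.9% of the genes called beside S249C were higher. The 2 lower members were PI3 and SERPINB3 in both settings. Mitochondrial transcripts again separated UTX from EV libraries, with 0.449% to 0.474% against 0.399% to 0.417% of counts beside wild type FGFR3 and 0.449% to 0.470% against 0.295% to 0.412% beside S249C; their part in the results was not tested.

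PI3 stood at 13.4, 14.0 and 13.4 CPM with EV and 0.692, 1.02 and 1.40 with UTX beside wild type FGFR3, and at 3.78, 3.29 and 5.03 and 0.184, 0.583 and 0.641 CPM beside S249C. No group overlapped another, and the log2 fold change of UTX was -3.69 ± 0.23 and -3.09 ± 0.29. In EV cells 0 of the 6 leukocyte markers were called higher and 3 lower with S249C (4.31% and 6.45% of all genes). With UTX, 0 were higher and 2 lower beside wild type FGFR3 (9.06% and 6.01%), and 2 higher and 3 lower beside S249C (12.9% and 8.62%). Among these markers, CD3E ran in the same order of EV groups as PI3 (1.83 ± 0.234 CPM beside wild type FGFR3, 0.488 ± 0.037 beside S249C). So did LYZ (6.85 ± 0.671 and 3.02 ± 0.509 CPM), while PTPRC was at most 0.464 CPM in any group. The part of these transcripts in the result was not tested. SERPINB3 stood at 1.85, 2.06 and 2.25 CPM with EV and 0.173, 0.466 and 0.312 with UTX beside wild type FGFR3, and at 0.611, 0.635 and 0.945 and 0.110, 0.146 and 0.214 CPM beside S249C. UTX was lower than EV in every library in both settings (-2.69 ± 0.31 and -2.18 ± 0.38), at 3 to 57 counts per library.

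SERPINB2 was higher with UTX in every library. It stood at 22.8, 20.5 and 21.2 CPM with EV and 43.0, 44.8 and 41.4 with UTX beside wild type FGFR3, and at 12.7, 10.7 and 13.5 and 26.2, 25.4 and 26.6 beside S249C. The log2 fold change was 1.00 ± 0.068 and 1.08 ± 0.073. SERPINB13 was higher in the same way at a low level, with 3.15, 3.75 and 3.15 CPM with EV and 5.49, 5.31 and 5.42 with UTX beside wild type FGFR3, and 0.878, 1.23 and 0.831 and 1.98, 2.55 and 2.32 beside S249C. Its log2 fold change was 0.69 ± 0.14 and 1.22 ± 0.17. SERPINB7 went from 20.5 ± 0.676 to 30.5 ± 2.28 CPM and from 14.3 ± 1.16 to 27.04 ± 1.62, without overlap. SERPINB8 went from 16.4 ± 0.806 to 21.01 ± 1.80 and from 15.6 ± 0.920 to 21.5 ± 0.650, also without overlap.

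These 4 genes were lower with UTX in full medium in the medium experiment and higher in the FGFR3 experiment, in every library. The experiments differ in the FGFR3 vector, the UTX vector and the library kit, which cannot be told apart, and their tables were scaled separately, so the difference was not tested. EV levels also differed between the tables: SERPINB13 was at 62.8 ± 3.60 CPM in EV_full and 3.35 ± 0.344 in EV_FGFR3WT, and SERPINB2 at 181 ± 2.89 and 21.5 ± 1.19.

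**Figure D3:**
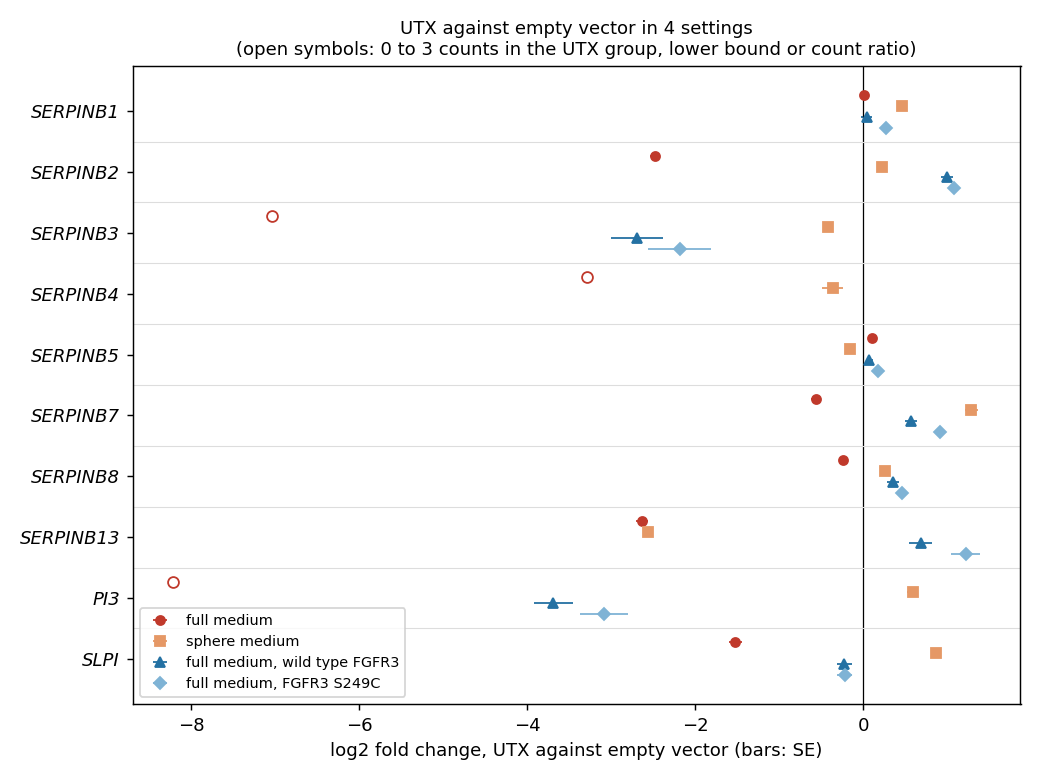
Log2 fold change of UTX against EV for each gene, with bars for the SE, in full medium, in sphere medium and beside each FGFR3. Open symbols are lower bounds or count ratios where the UTX group held 0 to 3 counts. SERPINB13 sits near -2.6 in both media and above 0 beside both FGFR3 forms.

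SERPINB1, SERPINB5 and SLPI differed little. SERPINB1 was at 19.7 ± 0.932 and 20.3 ± 1.37 CPM beside wild type FGFR3, with overlap, and at 19.3 ± 1.17 and 23.4 ± 0.551 beside S249C, without. SERPINB5 ran from 108 ± 1.07 CPM in EV_FGFR3S249C to 125 ± 3.26 in UTX_FGFR3WT. SLPI means lay between 13.9 ± 1.41 and 16.5 ± 0.840 CPM, and neighbours in that order overlapped. Beside wild type FGFR3, SLPI was lower with UTX (12.8, 13.9 and 15.5 CPM) than with EV (17.2, 15.6 and 16.8) in every library. Beside S249C the SLPI libraries of UTX and EV overlapped. Its fold change with UTX (-0.22 ± 0.087 and -0.22 ± 0.086) was not called in either setting; beside S249C it was called with total counts and without UTX_FGFR3S249C replicate 3.

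S249C was compared with wild type FGFR3 in cells without and with UTX. FGFR3 transcripts were also higher with S249C, so the mutation and the level of FGFR3 cannot be told apart. In EV cells 0 members were called higher and 6 lower (4.31% and 6.45% of all genes; 50.1% in place of 40.0% of the genes called were higher with total counts), with a median of -0.52 against 0.0032. The 6 were SERPINB13 (-1.77 ± 0.17), PI3 (-1.75 ± 0.19), SERPINB3 (-1.49 ± 0.26), SERPINB2 (-0.81 ± 0.075), SERPINB7 (-0.52 ± 0.076) and SERPINB5 (-0.14 ± 0.04), each lower in every library. The call of SERPINB5 ended with total counts in place of TMM factors and when any of 5 libraries was left out, all but EV_FGFR3WT replicate 2. In UTX cells 0 were called higher and 2 lower (1.71% and 1.34%), SERPINB2 (-0.72 ± 0.066) and SERPINB13 (-1.24 ± 0.14). The difference of the UTX effect between the FGFR3 forms was called in 0 of 9 members by edgeR and by DESeq2, where 0.572% of all genes were called higher and 0.113% lower. At an unadjusted p under 0.05 it held for 3 members by edgeR (SERPINB1, SERPINB7 and SERPINB13) and 1 by DESeq2 (SERPINB7), where it held for 2102 and 1492 of the 19399 genes tested. Since the members were selected on these groups, nothing is read from these unadjusted counts.

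Within the chromosome 18 cluster, neighbours differed in size and direction. With UTX in full medium SERPINB13 had a log2 fold change of -2.63 ± 0.071 and SERPINB3 was at least 131-fold lower, whereas SERPINB5, at one end of the cluster, was at 0.11 ± 0.042. SERPINB7 lies between SERPINB3 and SERPINB2 and was lower in sphere than in full medium in EV cells (-2.17 ± 0.068), while SERPINB3 was higher (4.28 ± 0.079).

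**Figure D4:**
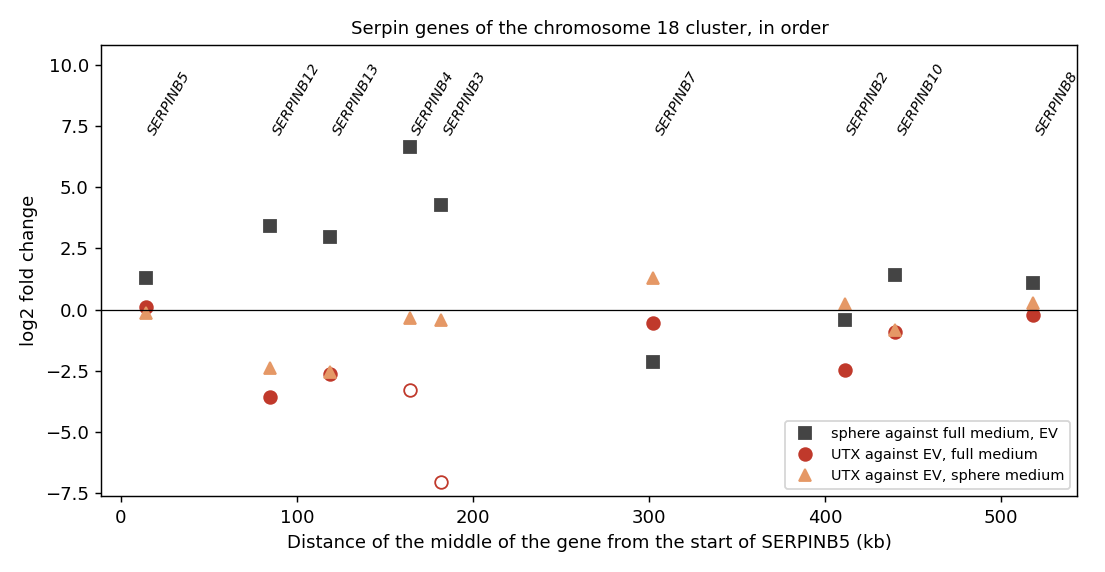
Log2 fold changes of the serpin genes tested in the chromosome 18 cluster, by distance from the start of SERPINB5 in kb, for sphere against full medium in EV cells and for UTX against EV in each medium. Open circles are the bound of SERPINB3 and the count ratio of SERPINB4. SERPINB12 is drawn at its fitted value, though its UTX group in full medium held 2 counts. For sphere against full medium SERPINB7 sits at -2.17, between SERPINB3 at 4.28 and SERPINB2 at -0.43.

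The other clade B serpins are SERPINB6, SERPINB9, SERPINB10, SERPINB11 and SERPINB12, of which 4 were tested in the medium experiment. In full medium UTX gave 0 higher and 3 lower, and in sphere medium 1 higher and 1 lower, where 28.4% and 29.2% of all genes were higher and lower in full medium and 22.8% and 25.6% in sphere medium. SERPINB12, a neighbour of SERPINB13, fell in both media and was chosen after its values were seen, so no p is given for it. In full medium it went from 0.308 ± 0.034 to 0.021 ± 0.036 CPM, which is 32 counts against 2. In sphere medium it went from 3.32 ± 0.412 to 0.625 ± 0.259 CPM. SERPINB9, the granzyme B inhibitor, rose with UTX in sphere medium from 2.80 ± 0.302 to 7.90 ± 0.572 CPM (edgeR adjusted p = 3.89e-08). SERPINB6, next to SERPINB1, fell from 59.0 ± 0.488 to 49.1 ± 3.87 CPM with UTX in full medium (adjusted p = 6.46e-05). In the FGFR3 experiment 2 of the 5 were in the table, and UTX lowered SERPINB9 beside wild type FGFR3 (log2 fold change -0.60 ± 0.18, adjusted p = 0.033).

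Of 18 other epithelial protease inhibitors, 15 were tested in the medium experiment. With UTX 9 were higher and 5 lower in full medium and 12 higher and 1 lower in sphere medium, with medians of 0.70 and 0.72. Of all genes 28.4% were higher and 29.2% lower in full medium and 22.8% and 25.6% in sphere medium, with medians of 0.040 and -0.0083. In the FGFR3 experiment 14 were tested, with 10 higher and 0 lower beside wild type FGFR3 and 11 higher and 0 lower beside S249C, against 9.06% and 6.01% and 12.9% and 8.62% of all genes. The cystatin CST6, a cathepsin inhibitor of skin, rose from 19.2 ± 0.828 to 63.5 ± 3.17 CPM in full medium (adjusted p = 1.38e-15) and from 0.248 ± 0.094 to 5.59 ± 0.793 in sphere medium (adjusted p = 2.67e-13). The metalloprotease inhibitor TIMP2 rose in sphere medium from 8.23 ± 0.986 to 62.8 ± 2.96 CPM (adjusted p = 4.66e-19). SPINK5, a kallikrein inhibitor of the epidermis, fell there from 88.6 ± 9.18 to 18.5 ± 1.77 CPM (adjusted p = 4.08e-16).

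Of 13 other WAP domain genes, relatives of PI3 and SLPI, 5 were tested, with 1 higher and 2 lower with UTX in each medium (28.4% and 29.2% of all genes in full medium, 22.8% and 25.6% in sphere medium). WFDC2 fell in full medium from 6.58 ± 0.556 to 1.08 ± 0.154 CPM (adjusted p = 4.23e-12), and WFDC5 fell in sphere medium from 15.7 ± 0.426 to 9.93 ± 0.534 (adjusted p = 7.6e-07). Of 10 proteases, 7 were tested, with 4 higher and 1 lower in full medium and 5 higher and 0 lower in sphere medium, set against the same shares of all genes. The plasminogen activator gene PLAT fell in full medium from 26.1 ± 2.42 to 11.5 ± 0.567 CPM (adjusted p = 2.96e-11) and rose in sphere medium from 13.2 ± 1.27 to 29.8 ± 2.22 (adjusted p = 4.13e-11). Urokinase, PLAU, the target of SERPINB2, rose beside wild type FGFR3 from 149 ± 5.68 to 220.1 ± 8.79 CPM (adjusted p = 3.29e-06). FURIN, the target of SERPINB8, rose in sphere medium from 297 ± 17.1 to 433 ± 7.71 CPM (adjusted p = 3.98e-09).

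Of 19 neighbours of the 3 loci, 13 were tested, with 5 higher and 8 lower in full medium and 5 higher and 7 lower in sphere medium, where 28.4% and 29.2% of all genes were higher and lower in full medium and 22.8% and 25.6% in sphere medium. BCL2, which lies beside the chromosome 18 cluster, fell from 3.52 ± 0.321 to 0.496 ± 0.175 CPM in full medium (adjusted p = 3.13e-11) and from 3.23 ± 0.542 to 1.59 ± 0.041 beside wild type FGFR3 (adjusted p = 0.00113). SDC4, a syndecan gene near PI3, rose in full medium from 228 ± 4.03 to 489 ± 8.65 CPM (adjusted p = 3.26e-17).

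The genes most like each member over libraries were ranked by the smaller of the 2 values of Pearson's r of log2(CPM + 0.5), computed in the 18 and the 12 libraries apart, over 10861 genes with at least 5 CPM in 1 group of each experiment. SERPINB3, which stayed under that level in the FGFR3 experiment, and SERPINB4, found in the medium table only, were left out. The libraries share groups and treatments, so r describes the groups and has no p. PI3 was most like S100A8 (0.99), KRT1 (0.95) and S100A9 (0.95), the S100 genes of inflamed epithelium and a keratin of cornifying skin. SERPINB13 was most like PRRG4 (0.95), SERPINB8 like FBXO27 (0.95) and SERPINB5 like PGD (0.93). SERPINB2 was most like CKMT1B (0.92), SERPINB1 like EMC3 (0.92), SLPI like KMT5A (0.89) and SERPINB7 like VGLL1 (0.89). Among the members themselves, r of PI3 with SLPI was 0.99 in the medium experiment and 0.80 in the FGFR3 experiment. PI3 and SERPINB8 had r of 0.98 in the former and -0.82 in the latter, and SERPINB2 and SERPINB7 -0.096 and 0.95.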

How the data were processed

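RNA of UMUC1 cells was sequenced in 30 libraries, 3 in each of 10 groups, with group and replicate taken from the sample titles. The values are estimated counts (expected counts) per gene, which the authors deposited as whole numbers in 1 table per experiment, not scaled to library size. Per the submitters' processing notes, Salmon 0.8 and DESeq2 were used, with the builds hg19 and GRCh37. No source used here says how transcripts were summed to genes or why the FGFR3 table is shorter.

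Each experiment was fitted apart with edgeR 4.0.16 (R 4.3.3). Low counts were removed with filterByExpr, libraries were scaled with TMM factors, and groups were compared by its quasi-likelihood test, adjusting p over all genes (Benjamini-Hochberg) (threshold 0.05), for 15 comparisons. An SE is a log2 fold change divided by the root of its F. The steps were tested on simulated counts. Total counts per library are in the report; where a group held 0 counts the fold is a bound with that group set at 3 counts, and with 1 to 3 counts the ratio has an exact 95% interval. Both cover counting error only.

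The 10 members and the lists of related genes were chosen with earlier results of these data known, so no p is given for members. Named besides them were KDM6A and FGFR3, from each list up to 3 genes with the largest called change of UTX against EV and a mean of at least 2 CPM, and the 3 genes most like each member (the first is printed where 3 are not); 1 gene named by this rule is not reported here. SERPINB12 was named outside this rule, after its values were seen, and without a p. Alternatives were RLE factors, total counts, no filter, DESeq2 1.42.0, a replicate block and leaving out each library. Promoters came from RefSeq (GRCh38.p14), matched by symbol for 8 of the 10 members. The shares of common words and the sum of SERPINB3 and SERPINB4 were added after the data were seen.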

Additional observations from a re-analysis of the deposited data

Results flagged for a closer look

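The difference of UTX against EV changed between full and sphere medium in 8 of the 10 members, 7 called higher and 1 lower by the edgeR interaction across all genes, where 21.1% of all genes were higher and 16.2% lower. This is a description here since the members were chosen with these groups known. The log2 difference of differences was 2.70 for SERPINB2, 2.39 for SLPI, 1.85 for SERPINB7, 0.49 for SERPINB8, 0.45 for SERPINB1 and -0.26 for SERPINB5. It was 9.59 for SERPINB3 and 8.56 for PI3, whose UTX_full groups held 0 and 2 counts, so that these 2 sizes depend on the prior count of the fit. SERPINB2, SERPINB7, SERPINB8, PI3 and SLPI were lower with UTX in full medium and higher in sphere medium in every library.

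With UTX in full medium, every library was lower than EV in the medium experiment and higher than EV beside wild type FGFR3 for SERPINB2 (log2 fold change 1.00 in the latter), SERPINB13 (0.69), SERPINB7 (0.57) and SERPINB8 (0.36). The difference between the experiments was not tested, because vectors, FGFR3 and library kit differ together.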

How the results depend on the processing

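Over 145 fold changes of members and 1707 fits with another choice, no called member changed direction; 45 calls ended, 30 of them when 1 library was left out. SERPINB1 of HEAA_full against EV_full ended with total counts and without EV_full replicate 3 or HEAA_full replicate 2. SERPINB5 of HEAA_sphere against EV_sphere ended with total counts, without a filter and without HEAA_sphere replicate 1. In UTX_full against HEAA_full, SERPINB3 was called without a filter, with DESeq2 and without HEAA_full replicate 1 or 2, PI3 without a filter and with DESeq2, SERPINB13 without UTX_full replicate 1 and SERPINB5 without UTX_full replicate 3; in sphere medium SERPINB8 was called without UTX_sphere replicate 1 or HEAA_sphere replicate 1. Other calls of members that ended stand beside their values in the report, and the cause was not tested.

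Counts of genes called, both directions together, moved by over 1.5 times in 3 comparisons when 1 library was left out. S249C against wild type FGFR3 in EV cells called 2088 genes and 1124 to 1717 without 1 library (1255 and 1124 without EV_FGFR3WT replicate 2 and 3, 1374 without EV_FGFR3S249C replicate 1). In UTX cells it called 591 and 291 to 535 (307, 291 and 353 without UTX_FGFR3WT replicate 1, 2 and 3, 379 without UTX_FGFR3S249C replicate 2). The difference of the UTX effect between FGFR3 forms called 133 and 58 to 248, the highest without UTX_FGFR3S249C replicate 3, and any library but EV_FGFR3S249C replicate 2 moved it. Counts in 1 direction also moved so far in 4 other comparisons, given in the report beside their shares; in the first of these 3 the 836 genes higher were 534 without EV_FGFR3WT replicate 1, and in the second the 259 lower were 167 without UTX_FGFR3S249C replicate 1. With total counts the 4212 genes lower in HEAA_sphere than in EV_sphere were 2695, and the 111 higher in the difference of the UTX effect between FGFR3 forms were 72; the 22 lower there were 34 with DESeq2.

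Replicate numbers were not used to pair the libraries. In no comparison were all 3 correlations of same-numbered deviations above 0.1, and they ran from -0.24 to 0.43. The closest was S249C against wild type FGFR3 in UTX cells, at 0.33, 0.098 and 0.43, with 2 libraries most like their own number. A pairing there is not settled by these values. In no comparison did every library correlate best with its own number. With a replicate block the difference of the UTX effect between FGFR3 forms called 80 genes in place of 133, and no other count of genes moved by over 1.5 times; it ended 3 member calls (SERPINB1 of UTX against HEAA in both media, SERPINB5 of S249C against wild type FGFR3 in EV cells) and made 1 (SLPI of UTX against EV beside S249C). Depth limits SERPINB4 in full medium and SERPINB3 and PI3 with UTX or HEAA in full medium, at 0 to 14 counts a group. It also limits the related gene SERPINB12 with UTX or HEAA in full medium, at 2 counts a group.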
